A study of Mus musculus with 4 samples.

Results

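Ribosomes are built in the nucleolus, where RNA polymerase I transcribes the precursor of ribosomal RNA. Small nucleolar ribonucleoproteins (snoRNPs) modify this precursor, and large assembly complexes cut and fold it into the 40S and 60S subunits. Growing cells of the crypt base make many ribosomes, and ribosome production is known to slow as intestinal cells stop dividing and differentiate. The transcription factor Myc is known to activate many genes of this pathway.

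A set of 38 nucleolar ribosome biogenesis genes, out of 30360 genes in the deposited table, was followed in colonic organoid (colonoid) cultures. The members were taken by their symbol in the gene table, and each symbol matched 1 gene. By role, 4 were nucleolar organizers, 3 were box C/D snoRNP proteins, 4 were box H/ACA snoRNP proteins and 3 belonged to RNA polymerase I transcription. A further 3 formed the PeBoW complex, 9 were other 60S assembly factors, 8 belonged to the small-subunit (SSU) processome and 4 were late 40S assembly factors. Levels were summed within each of the 11 cell classes that the authors deposited, and each comparison was divided into a part from class shares and a part within classes.

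Colonoids were grown from the distal colon of wildtype C57BL/6 mice and of Tnfr2-/- mice (B6.129S2-Tnfrsf1b tm1Mwm/J), which lack tumor necrosis factor receptor 2 in all cells of the body, the mesenchymal cells included. The methods name several mice per genotype for the cultures and repeat experiments, but how many stand behind each library was not stated. After passage 5, cultures of the TNF groups were kept with the cytokine (20 ng/ml, days 1 to 6), and every culture was harvested on day 7. Mice were 16 weeks old per the labels, and the untreated cultures are labelled as vehicle in another field. Wildtype untreated, wildtype TNF, then Tnfr2-/- untreated and, last, Tnfr2-/- TNF were the 4 groups, with 1 library each, so no comparison between groups has a replicate error or a test. Lists of 4 values below keep this order. Brackets after a level give a 95% Poisson interval, which covers counting error only and not the spread between cultures or mice.

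The libraries held 980 to 2589 cells each, 6155 in all, with 44547639 to 87228093 UMIs (unique molecular identifiers, a count of captured RNA molecules). Epithelial cells numbered 858 to 1163, and they shared the cultures with 90 to 1430 mesenchymal cells. Of 6152 barcode sequences, 3 occurred in more than 1 library. Tnfrsf1b, the targeted gene, had 4.17, 12.1, 1.82 and 6.89 CPM (UMI counts scaled to the same total of 1000000 in each group of cells) in the epithelium. Which part of the gene is deleted was not stated, and a tag at the 3' end therefore does not check the labels. In epithelial cells 5 epithelial markers (Epcam, Krt8, Krt18, Cdh1 and Cldn7) summed to 8219 to 10270 CPM, and 6 mesenchymal markers to 5.21 to 22.6 CPM.

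Of the epithelial classes, Progenitor.1 and Progenitor.3 carried the highest levels of the members in all 4 libraries. Absorptive cells carried the lowest, from 1 cell in Tnfr2-/- TNF, and Progenitor.2 stood near them in wildtype untreated. In Progenitor.1 the summed level of the 38 genes was 7228 (7196 to 7259), 6355 (6319 to 6392), 7582 (7554 to 7610) and 6408 (6339 to 6478) CPM. In Progenitor.2 it was 2250 (2179 to 2323), 2060 (2035 to 2085), 2824 (2791 to 2857) and 2545 (2528 to 2563) CPM. All 4 values of Progenitor.1 thus lay above all 4 of Progenitor.2. The ratio of the classes was 3.21, 3.08, 2.69 and 2.52. Cells had been clustered on all genes, the members included, so this contrast describes the classes and tests nothing.

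The remaining epithelial classes spanned the range between, and in part beyond, these levels. Progenitor.3 had 7103, 7048, 8875 and 4247 CPM, the last from 11 cells. Absorptive cells had 2027 and 1023 CPM in the wildtype libraries (319 and 19 cells), with 2031 CPM from 11 cells and 881 CPM from 1 cell in Tnfr2-/-. The secretory class marked by Reg4, Spdef and Lyz1 had 4618, 3835, 4454 and 2921 CPM, the last from 8 cells, and was higher than Absorptive in every library. Enteroendocrine cells had 2923, 2905, 3303 and 2295 CPM. The secretory class marked by Reg4 and Ang4 was found with 246 cells in wildtype TNF only and had 4137 CPM at a median of 1957.5 UMIs per cell. Mesenchymal markers summed to 893 CPM in that class, and their part in its level was not tested.

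**Figure D1:**
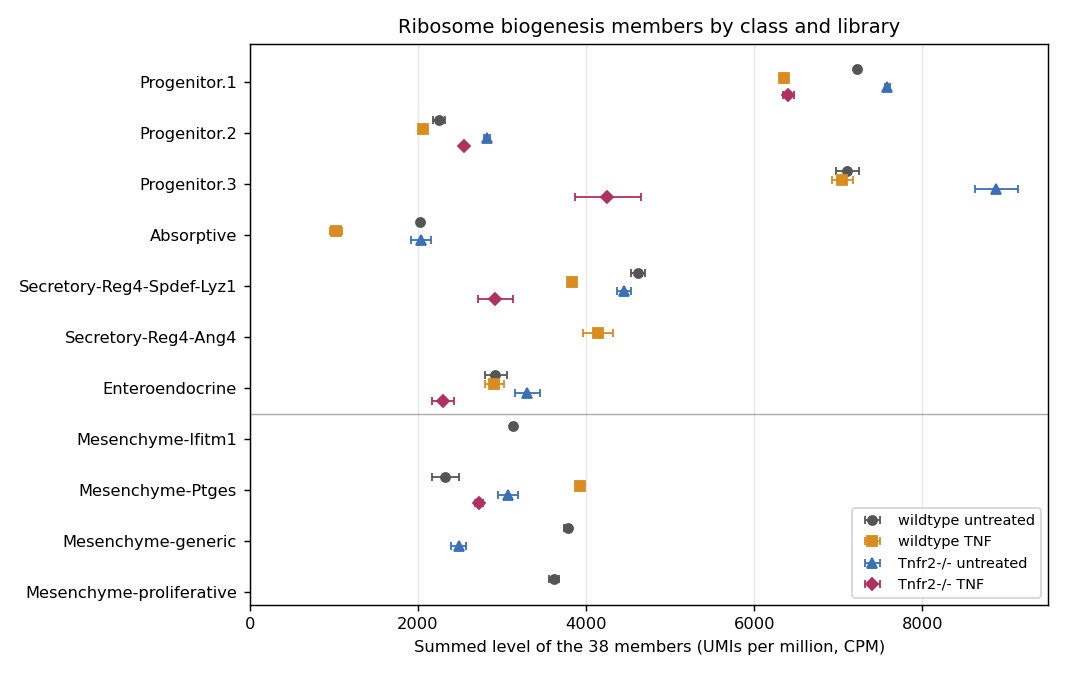
Summed level of the 38 members (x axis, CPM) in each deposited class (y axis, mesenchymal classes below the line) and library (colour and shape), with 95% Poisson intervals; classes with fewer than 5 cells in a library are left out. Progenitor.1 spans 6355 to 7582 CPM and Progenitor.2 spans 2060 to 2824 CPM.

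Npm1 and Ncl made up much of the sum. Npm1 encodes nucleophosmin, an abundant chaperone of the nucleolus, and gave 39.3% to 43.3% of the members' UMIs in epithelial cells. Ncl encodes nucleolin, which binds the ribosomal RNA precursor, and gave 12.98% to 14.7%. These libraries tag the 3' end of each molecule, so such shares do not scale with transcript length. Npm1 also has processed pseudogenes in the mouse genome, and the handling of reads shared among them was not stated. Without both genes the ratio of Progenitor.1 to Progenitor.2 was 2.52 in wildtype untreated, down from 3.21.

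Single cells of the 2 progenitor classes differed on the members, with tails that overlapped in Tnfr2-/-. In Progenitor.1 the median cell gave 0.715%, 0.612%, 0.730% and 0.611% of its UMIs to the 38 genes. In Progenitor.2 the medians were 0.123%, 0.132%, 0.212% and 0.181%. The lower quartile of Progenitor.1 (0.481% to 0.572%) was above the upper quartile of Progenitor.2 (0.228% to 0.331%) in every library. In Tnfr2-/- untreated and TNF, the 10th percentile of Progenitor.1 (0.439% and 0.405%) lay below the 90th of Progenitor.2 (0.502% and 0.461%). Median depth was lower in Progenitor.2 in every library. The gap was widest in wildtype untreated, where the median Progenitor.2 cell held 15574.5 UMIs against 43626 in Progenitor.1. In Tnfr2-/- untreated the medians were 33685 and 46629 UMIs. After thinning each cell to 5000 UMIs, the median cell held 35, 30, 37 and 31 member UMIs in Progenitor.1 and 7, 7, 11 and 9 in Progenitor.2.

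The classes also differed in cycling cells. A list of 20 cell cycle genes summed to 1611, 1605, 1892 and 2148 CPM in Progenitor.1 and to 92.3, 123, 160 and 159 CPM in Progenitor.2. Mki67, a marker of cycling cells, was at 174, 225, 200.0 and 225 CPM in Progenitor.1 against 1.79, 9.78, 4.14 and 7.82 CPM in Progenitor.2. Markers of absorptive cells (Car1, Aqp8, Slc26a3 and Car4) ran the other way, with 22.01 to 399 CPM in Progenitor.1 and 517 to 3110 CPM in Progenitor.2. Car1 made up most of these sums. In Tnfr2-/- Progenitor.2, Aqp8, Slc26a3 and Car4 each stood at only 1.10 to 4.27 CPM. The deposited name Progenitor.2 is kept here. Secretory markers (Muc2, Spdef, Reg4 and Tff3) differed between its libraries, at 36.9, 575, 75.5 and 1785 CPM, and their part in the differences within this class was not tested. Tff3 made up most of these sums, at 33.4, 511, 74.4 and 1732 CPM. Within Progenitor.1, thinned cells with more cell cycle UMIs held somewhat more member UMIs. Between the lowest and the highest tercile of cells by cell cycle UMIs, the median member count went from 30 to 39, 27 to 35, 28 to 42 and 27 to 31. The rank correlation over cells was 0.34 (546 cells), 0.28 (335), 0.45 (644) and 0.09 (94), among cells that share a library. In Progenitor.2 it was 0.07 to 0.18, and the median thinned cell held no cell cycle UMI.

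Every one of the 38 members was higher in Progenitor.1 than in Progenitor.2 in each of the 4 libraries. At least 2-fold higher were 28, 35, 30 and 31 members, where 15%, 14.4%, 10.7% and 14% of all genes at 10 CPM or more were. The median member was higher by 1.37, 1.66, 1.38 and 1.40 on the log2 scale of CPM + 1, against 0.05, 0.10, 0.06 and 0.15 for all genes.

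Members of one complex did not all have the same ratio. Rrp15, a factor of 60S maturation (chromosome 1, 186720978 to 186749358, minus strand), had the largest in every library, at 7.08, 8.77, 4.65 and 5.37. Dkc1, the pseudouridine synthase of the box H/ACA snoRNP, came next by geometric mean, at 5.86, 6.17, 4.57 and 3.74, although Utp20 (4.63) and Rrp1b (4.24) were above it in Tnfr2-/- TNF. Nop10, a small subunit of the same particle, had the smallest geometric mean ratio of the 38, at 2.00, 1.55, 1.55 and 1.59. Gar1 of this particle had 4.06, 5.35, 3.99 and 3.67, and Nhp2 had 2.02, 3.05, 2.60 and 2.68.

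The box C/D snoRNP, which guides methylation of ribosomal RNA, was more even. Fbl, its methyltransferase, had ratios of 3.57, 4.58, 3.13 and 3.04, Nop56 had 3.29, 4.73, 3.46 and 3.34, and Nop58 had 2.88, 4.79, 3.67 and 3.44. In RNA polymerase I transcription, Polr1b had 4.62, 5.61, 3.37 and 3.31, Mybbp1a had 3.27, 4.56, 3.46 and 3.11, and Polr1a had 2.25, 4.08, 2.22 and 2.18. Polr1a and Polr1b encode the largest and second largest subunits of the enzyme, and Mybbp1a is a nucleolar protein bound to ribosomal gene transcription. Within the PeBoW complex, a trimer of 60S assembly, Wdr12 had 4.78, 5.24, 3.43 and 3.66. Its partners Pes1 (2.31, 2.70, 1.70 and 1.89) and Bop1 (1.57, 2.08, 1.80 and 1.92) were below Wdr12 in every library.

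The SSU processome, which assembles on the early precursor of the 40S subunit, spread widely. Utp20 had ratios of 4.197, 4.83, 3.36 and 4.63, whereas Utp18 had 1.29, 2.01, 1.84 and 1.90 and Utp4 had 1.89, 1.88, 1.501 and 1.89. Late 40S factors lay between 2.07 (Nob1, the nuclease that finishes the 3' end of 18S RNA, in Tnfr2-/- untreated) and 3.42 (Rrp12 in Tnfr2-/- TNF). In wildtype TNF the ratio was the highest of the 4 libraries for 31 of 38 members.

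**Figure D2:**
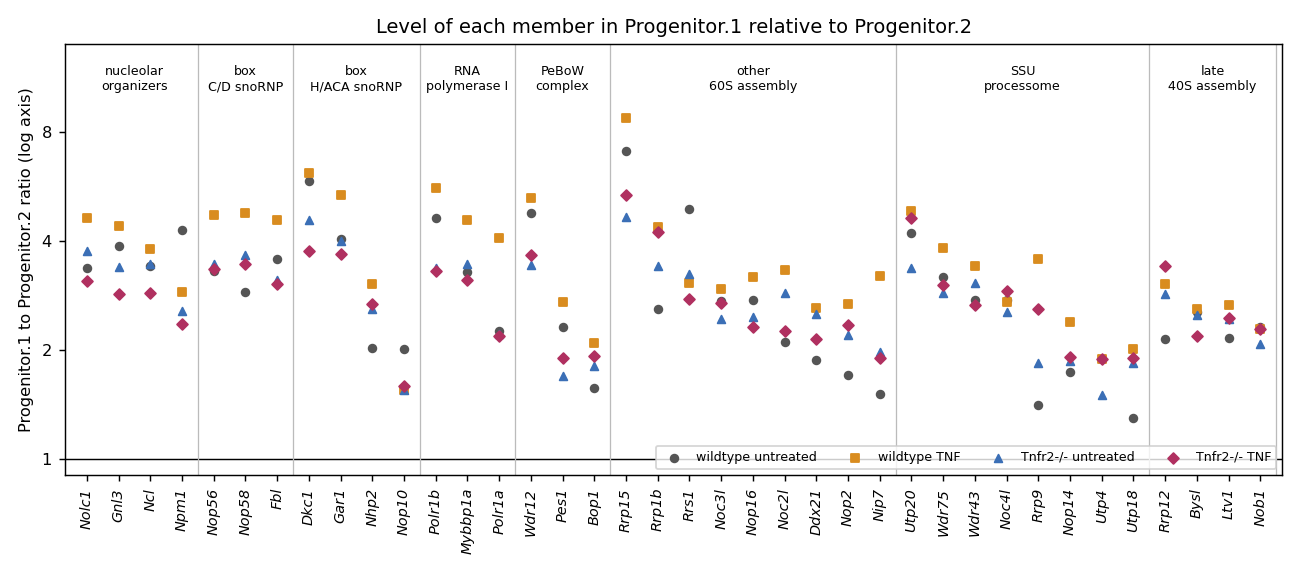
Ratio of each member's level in Progenitor.1 to that in Progenitor.2 (y axis, log scale) in the 4 libraries, with members grouped by role on the x axis. Every point lies above 1, from Utp18 in wildtype untreated (1.29) to Rrp15 in wildtype TNF (8.77).

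Promoter sequences were read from RefSeq (GRCm38.p6, 250 bases before to 50 after each gene's start), which held 33 of the 38 members. Bop1, Rrs1, Npm1, Fbl and Rrp12 were the other 5. Both strands were searched for CACGTG, the E-box bound by Myc and related factors, and for CCGGAAG, a core bound by ETS factors such as GABPA. A gene was counted once per word, however many matches it held. An E-box stood in the promoter of 8 of the 33 members (24.2%): Mybbp1a, Pes1, Nop2, Utp4, Utp18, Utp20, Wdr43 and Ltv1. This compares with 8.09% of all 27025 genes in the table and 12.9% of the 6205 genes of the table at 10 CPM or more in the epithelium. CCGGAAG stood in 11 of 33 (33.3%), against 9.93% of all genes and 23.4% of those expressed. At least 1 of the words was found in 15 members and both in 4. These are letter matches and not measured binding.

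The promoters of 4 members on which results below turn are shown 5′ to 3′ on the gene's strand, with CACGTG or CCGGAAG (or its reverse complement CTTCCGG) in capitals. Mybbp1a (chr11:72441077-72441376, plus strand) and Utp20 (chr10:88826765-88827064, minus strand) have an E-box at positions 41 and 38 after the start. Nolc1 (chr19:46075597-46075896, plus strand) has the ETS core 14 bases before the start, and Rrp15 (chr1:186749309-186749608, minus strand) has it at position 35 after the start.
Mybbp1a: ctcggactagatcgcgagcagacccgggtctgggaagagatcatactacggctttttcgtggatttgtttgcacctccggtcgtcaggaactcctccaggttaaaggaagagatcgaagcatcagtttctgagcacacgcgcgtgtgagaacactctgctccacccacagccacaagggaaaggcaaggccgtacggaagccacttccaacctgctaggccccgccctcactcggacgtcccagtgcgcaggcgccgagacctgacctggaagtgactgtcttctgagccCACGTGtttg
Utp20: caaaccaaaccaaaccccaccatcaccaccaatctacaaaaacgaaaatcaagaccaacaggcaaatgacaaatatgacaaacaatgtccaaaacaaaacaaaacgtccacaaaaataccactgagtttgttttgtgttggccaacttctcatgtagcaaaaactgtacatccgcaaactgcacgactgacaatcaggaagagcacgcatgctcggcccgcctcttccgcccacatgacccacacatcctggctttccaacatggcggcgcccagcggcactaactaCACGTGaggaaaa
Nolc1: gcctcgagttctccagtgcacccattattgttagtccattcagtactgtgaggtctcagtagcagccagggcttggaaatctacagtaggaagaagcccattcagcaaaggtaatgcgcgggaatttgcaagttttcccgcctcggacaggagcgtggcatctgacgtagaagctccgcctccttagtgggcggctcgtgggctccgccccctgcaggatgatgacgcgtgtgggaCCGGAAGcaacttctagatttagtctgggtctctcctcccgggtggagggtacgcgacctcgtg
Rrp15: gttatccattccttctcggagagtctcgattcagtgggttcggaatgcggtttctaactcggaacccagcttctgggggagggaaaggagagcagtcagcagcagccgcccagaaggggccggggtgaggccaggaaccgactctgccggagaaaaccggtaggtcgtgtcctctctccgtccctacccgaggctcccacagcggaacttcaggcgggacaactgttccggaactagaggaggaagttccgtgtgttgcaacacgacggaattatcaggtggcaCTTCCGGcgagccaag
The 8 members with an E-box had geometric mean ratios of Progenitor.1 to Progenitor.2 from 1.74 (Utp18) to 4.21 (Utp20). Those of the 11 with CCGGAAG ran from 1.74 (Utp18) to 6.27 (Rrp15). All 33 ran from 1.66 (Nop10, with neither word) to 6.27. Whether the ratios go with the words was not tested.

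Across the whole epithelium the members were higher in untreated Tnfr2-/- colonoids than in wildtype, and lower with TNF in both genotypes. The summed level was 5196 (5176 to 5216), 4462 (4442 to 4482), 6411 (6389 to 6433) and 3046 (3029 to 3063) CPM. Both Tnfr2-/- libraries stood at the ends of this range. The 4 comparisons below share these 4 libraries, so they are not independent of each other.

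These epithelial levels moved together with the class shares. Progenitor.1 held 54.9%, 44.2%, 72.5% and 12.9% of epithelial UMIs, and Progenitor.2 held 3.34%, 30.7%, 19.6% and 84.8%. Absorptive cells held 31.9% in wildtype untreated and 0.106% to 2.09% elsewhere. Each difference was split at the midpoint into a share term (classes at their mean level, with the shares that changed) and a within-class term (classes at their mean share, with the levels that changed).

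Of the untreated genotype difference of 1216 CPM, 892 CPM (73.4%) lay in the share term. Progenitor.1 and Progenitor.2 both had larger shares in Tnfr2-/-, and Absorptive a smaller one. Change within Progenitor.1 gave 226 CPM (18.6%) and change within Progenitor.2 gave 65.7 CPM (5.40%). With TNF the genotype difference was -1416 CPM. The share term of -1564 CPM was larger than the whole difference (110%), because the members within Progenitor.2 were higher in Tnfr2-/-, by 280 CPM after weighting. Change within Progenitor.1 gave 14.9 CPM, and the other classes gave -148 CPM.

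The effect of TNF was divided differently in the 2 genotypes. In Tnfr2-/- the level was lower by 3366 CPM with TNF (a difference of -3366 CPM), of which -2629 CPM (78.1%) came from shares. Within Progenitor.1 the term was -501 CPM (14.9%) and within Progenitor.2 it was -145 CPM (4.31%). In wildtype the difference was -734 CPM, and its share term was only -13.4 CPM (1.82%). There Absorptive, with a low level, went from 31.9% to 2.09% of epithelial UMIs, while Progenitor.2, also with a low level, went from 3.34% to 30.7%. Progenitor.1 went from 54.9% to 44.2%, and the secretory class marked by Reg4, Spdef and Lyz1 from 5.64% to 15.6%. Change within Progenitor.1 gave -432 CPM (58.9%), within Progenitor.2 -32.3 CPM (4.396%), and within the other classes -256 CPM (34.9%). The order of the split moved the wildtype share term from -16.1% to 19.7%. Without Npm1 and Ncl it was -14.4%.

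**Figure D3:**
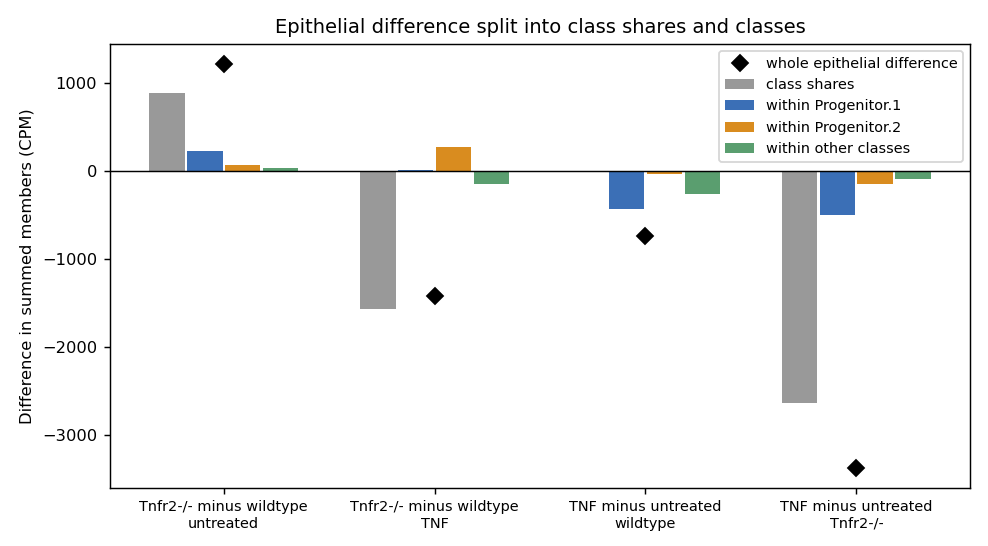
Difference in the summed level of the members (y axis, CPM) for the 4 comparisons (x axis), as a whole (diamonds) and as the share term and the within-class terms (bars). The share term is -2629 CPM of -3366 CPM for TNF in Tnfr2-/- and -13.4 CPM of -734 CPM for TNF in wildtype.

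Reducing the epithelium to Progenitor.1 and Progenitor.2, without the other 5 classes, changed the direction of a genotype difference in each of 2 ways. The log2 ratios of the summed members over the whole epithelium were 0.30 for the untreated genotype pair, -0.55 for the genotype pair with TNF, -0.22 for TNF in wildtype and -1.07 for TNF in Tnfr2-/-. With the 2 classes alone at their own shares they were -0.08, -0.59, -0.60 and -1.10, so the untreated genotype difference turned. With the 2 classes alone and weighted equally they were 0.13, 0.09, -0.17 and -0.22, so the genotype difference with TNF turned.

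Member by member, the same division was seen. The share term was the larger in 26 of 38 members for the untreated genotype pair, 37 for the genotype pair with TNF and 36 for TNF in Tnfr2-/-, but in 2 of 38 for TNF in wildtype. The 2 terms had opposite signs in 10, 25, 2 and 24 members, in that order. Npm1 went from 2250 to 2523 CPM between the untreated genotypes, with a share term of 335 CPM and a within-class term of -62.1 CPM. Nolc1, an organizer of nucleolar RNA polymerase I transcription and snoRNP transport, was the exception with TNF. It stood at 80.1 and 80.5 CPM in the 2 genotypes, from a share term of -42.4 CPM and a within-class term of 42.8 CPM.

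In the untreated epithelium 37 of 38 members were higher in Tnfr2-/-, as were 63.2% of all genes at 10 CPM or more. The median difference was 0.40 log2 against 0.13 for all genes at 10 CPM or more. At least 1.5-fold higher were 6 members (Nolc1, Nop56, Mybbp1a, Noc3l, Ddx21 and Rrp12) of 38, where 10.6% of all genes were. Without the members of chromosomes 2 and 19 the count was 2. Mybbp1a was at 88.9, 84.7, 142 and 53.7 CPM in the 4 libraries and Ddx21, an RNA helicase of rRNA processing, at 80.8, 80.8, 125 and 64.5 CPM. Ncl was at 674, 616, 940 and 411 CPM. All 3 were highest in Tnfr2-/- untreated and lowest in Tnfr2-/- TNF.

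With TNF, 37 of 38 members were lower in Tnfr2-/- than in wildtype (59.2% of all genes), by a median of -0.56 (all genes -0.12). At least 1.5-fold lower were 17 members, with a background of 19.2% of all genes. Scaled by TMM factors, which set the median of all genes near 0, the count was 9. Comparing TNF with untreated, 37 of 38 members were lower in wildtype (42.6% of all genes), by a median of -0.16 (all genes 0.06). There 0 were 1.5-fold lower (2.3% of all genes). In Tnfr2-/- all 38 were lower, by a median of -1.15 (all genes -0.14), and 35 were at least 1.5-fold lower, where 21.5% of all genes were. The 3 below this fold were Utp4, Nop14 and Nob1. Rrp15 had the largest difference, from 38.3 to 11.4 CPM (-1.66), followed by Utp20 from 31.7 to 10.4 CPM (-1.51). Npm1 went from 2523 to 1272 CPM (-0.99) and Dkc1 from 67.3 to 24.4 CPM (-1.43).

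The mitochondrial share of epithelial UMIs was 3.79%, 4.32%, 4.92% and 6.22%, highest in the library with the lowest level of the members. Its part in the differences was not tested. With totals that left out mitochondrial genes, the share terms were 67.6% and 117% for the genotype pairs, and for TNF in Tnfr2-/- it was 79.5%.

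Within Progenitor.1 the members differed little between libraries. The median differences were 0.15 and -0.01 for genotype (untreated, then TNF), and -0.11 and -0.23 for TNF (wildtype, then Tnfr2-/-). For all genes they were 0.07, -0.03, 0.06 and -0.03. With TNF, 34 of 38 members were lower in each genotype, beside 40.7% of all genes in wildtype and 54.3% in Tnfr2-/-. Of the 38, 0 reached 1.5-fold in either (1.55% and 2.58% of all genes were lower by that fold).

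The only members at least 1.5-fold apart in Progenitor.1 were Nolc1 and Rrp12, both higher in Tnfr2-/- in both pairs, where 5.84% and 5.7% of all genes were. In the pair with TNF 0 members were 1.5-fold lower (6.12% of all genes). For Nolc1 the CPM values were 136 (132 to 141), 124 (119 to 129), 220 (215 to 225) and 196 (184 to 208), and the differences 0.69 and 0.66. Rrp12, a late 40S and export factor, had CPM values of 11.5 (10.2 to 12.8), 9.58 (8.22 to 11.1), 20.2 (18.8 to 21.7) and 15.99 (12.7 to 19.8), and differences of 0.77 and 0.68. Both wildtype values of each gene lay below both Tnfr2-/- values. The intervals did not overlap within a genotype pair, though for Rrp12 those of wildtype untreated and Tnfr2-/- TNF just met. At the other end, Nop16 was at 81.8, 67.5, 67.7 and 50.1 CPM and lower in Tnfr2-/- by 0.27 and 0.42 (differences of -0.27 and -0.42). Nip7 was at 73.9, 66.0, 69.7 and 54.4 CPM. Nop16 and Nip7 are small factors of 60S assembly.

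Nolc1 and Rrp12 lie on chromosome 19, as does Noc3l, another 60S factor. Noc3l was at 26.1, 25.8, 38.2 and 35.7 CPM in Progenitor.1, with genotype differences of 0.54 and 0.45. The median over the 3 members was 0.69 and 0.66, beside 0.48 and 0.48 for all 304 genes of that chromosome and 0.12 and -0.03 for the 32 members outside chromosomes 2 and 19. On chromosome 2, Nop56 had 167, 166, 237 and 203 CPM, Polr1b had 19.2, 16.4, 23.1 and 20.5 CPM, and Nop10 had 375, 356, 401 and 296 CPM. Their median differences were 0.25 and 0.29, beside 0.28 and 0.23 for all 637 genes of chromosome 2. In Progenitor.2 the chromosome 19 members had medians of 0.53 and 0.54, and in mesenchymal cells -0.16 and -1.08. Higher levels of chromosome 19 genes in the Tnfr2-/- epithelium thus went together with the members there, and their part in these differences was not tested.

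Most other members of Progenitor.1 kept close levels in the 4 libraries. Fbl was at 161, 151, 171 and 139 CPM and Dkc1 at 76.8, 70.0, 82.9 and 67.1 CPM. Pes1 was at 44.0, 42.0, 48.2 and 47.2 CPM, Nop2, a 60S factor and RNA methyltransferase, at 39.6, 33.8, 46.1 and 41.3 CPM, and Rrs1 at 99.01, 87.1, 91.0 and 83.1 CPM. Polr1a was at 26.8, 25.4, 30.9 and 26.7 CPM and Gnl3 at 140, 134, 149 and 146 CPM. In each of these genes the highest library was less than 1.5-fold above the lowest. Ddx21, at 105, 110, 146 and 121 CPM, and Mybbp1a, at 131, 131, 173 and 131 CPM, were highest in Tnfr2-/- untreated.

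TNF-linked differences in Progenitor.1 were small and spread over roles. Nhp2, a core protein of the box H/ACA snoRNP, had CPM values of 333 (327 to 340), 247 (240 to 254), 327 (321 to 333) and 239 (226 to 253), and both TNF libraries lay below both untreated ones. Its TNF differences were -0.43 in wildtype and -0.45 in Tnfr2-/-. Npm1 behaved alike, at 3126, 2583, 2966 and 2553 CPM (-0.28 and -0.22). Bop1 was at 35.5, 29.1, 41.1 and 27.1 CPM and had the largest difference with TNF in Tnfr2-/-, -0.58, followed by Bysl of the 40S pathway at 22.8, 22.1, 27.5 and 19.3 CPM (-0.49). In wildtype Noc4l followed Nhp2, at 31.05 (29.0 to 33.2), 23.7 (21.5 to 26.0), 30.1 and 26.5 CPM (-0.38). Nob1 was the member with the largest difference upward with TNF in Tnfr2-/-. Its CPM values were 37.2, 31.05, 33.03 (31.2 to 34.9) and 38.03 (32.9 to 43.8), and the last 2 intervals overlapped. Rrp1b followed at 38.5, 32.4, 46.01 and 47.4 CPM. In wildtype the largest upward were Utp20, at 34.99, 36.9, 38.7 and 32.8 CPM, and Ddx21, given above.

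Within Progenitor.2 the differences were wider and the counts thinner. Of the members, 33 of 38 reached a mean of 10 CPM there, and Polr1b, Rrp15, Utp20, Bysl and Rrp12 did not. Wildtype untreated had 62 Progenitor.2 cells with 3778 member UMIs, against 26135 to 85895 in the other 3 libraries. Values that rest on this library therefore have the widest counting intervals of this class.

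With TNF, 35 of 38 members were higher in Tnfr2-/- Progenitor.2 than in wildtype, as were 47.3% of all genes. The median difference was 0.44 (all genes -0.03), and 8 members were at least 1.5-fold higher (8.26% of all genes were). These were Nolc1, Gnl3, Nop56, Dkc1, Polr1a, Polr1b, Pes1 and Noc2l. Nolc1 had 40.5 (31.4 to 51.3), 26.7 (24.0 to 29.7), 58.7 (54.1 to 63.7) and 63.3 (60.7 to 66.1) CPM and the largest difference, 1.21. Polr1b followed with 4.17 (1.68 to 8.59), 2.92 (2.05 to 4.02), 6.86 (5.33 to 8.70) and 6.19 (5.38 to 7.09) CPM, a difference of 0.88. Polr1a had 11.9 (7.28 to 18.4), 6.23 (4.93 to 7.76), 13.9 (11.7 to 16.5) and 12.2 (11.1 to 13.5) CPM (0.87). In all 3 genes wildtype TNF was the lowest library, and its interval did not meet that of Tnfr2-/- TNF. Gnl3, nucleostemin, had 36.3, 30.6, 44.1 and 51.0 CPM. Nop10 went the other way, with 187 (167 to 209), 230 (221 to 238), 258 (248 to 268) and 186 (181 to 190) CPM, a difference of -0.30. Averaging cells rather than pooling their UMIs raised the count to 16, and leaving out the members of chromosomes 2 and 19 lowered it to 5.

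The untreated genotype pair in Progenitor.2 had a median of 0.21 (all genes 0.07), with 26 members higher and 12 lower (56.2% and 43.8% of all genes). At least 1.5-fold higher were Npm1, Polr1b and Noc3l, 3 of 38, where 14% of all genes were. Npm1 had CPM values of 728 (688 to 770), 892 (876 to 909), 1156 (1135 to 1177) and 1083 (1072 to 1094), a difference of 0.67. Noc3l had 16 UMIs or 9.53 CPM in wildtype (5.45 to 15.5), an interval that overlaps the one around 15.7 CPM in Tnfr2-/- (13.4 to 18.4), beside 8.75 and 13.2 CPM in wildtype TNF and Tnfr2-/- TNF. At the other end, Nip7 was at 48.8 (38.8 to 60.6) and 35.4 (31.8 to 39.3) CPM (-0.45) and Utp18 at 47.6 (37.8 to 59.3) and 35.6 (32.0 to 39.5) CPM (-0.41), also with some overlap. With TNF, Utp18 was at 29.9 CPM in wildtype and 29.3 CPM in Tnfr2-/-.

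TNF went with lower members in Progenitor.2 of both genotypes. In wildtype 35 of 38 were lower (49.6% of all genes), by a median of -0.42 (all genes 0.00). At least 1.5-fold lower were 11, where 9.76% of all genes were. These were Nop58, Nhp2, Polr1a, Bop1, Nop2, Nip7, Rrp1b, Noc2l, Utp18, Rrp9 and Rrp12. The counting intervals of the members had median ends of -0.93 and 0.07 in this pair, so many reached 0. In Tnfr2-/- 32 of 38 were lower (65.5% of all genes), by a median of -0.24 (all genes -0.11). At least 1.5-fold lower were 3 (Bop1, Utp20 and Rrp9), where 5.21% of all genes were. Over the alternatives the medians ran from -0.50 to -0.26 in wildtype and from -0.25 to -0.07 in Tnfr2-/-, so their size is not settled. TMM factors moved the median of all genes in the Tnfr2-/- pair from -0.11 to 0.06.

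Rrp9, a U3 snoRNA-binding protein of the SSU processome, had the largest difference with TNF in both genotypes. The CPM values were 22.04 (15.5 to 30.4), 8.67 (7.13 to 10.5), 19.5 (16.8 to 22.4) and 11.1 (9.96 to 12.2), and the TNF differences were -1.25 and -0.76. Both TNF libraries lay below both untreated ones. Nip7 was at 48.8, 20.7, 35.4 and 28.7 CPM (-1.20 and -0.29) and Nhp2 at 165, 81.0, 126 and 89.3 CPM (-1.02 and -0.49). Bop1 was at 22.6, 13.95, 22.8 and 14.1 CPM (-0.66 and -0.65). Utp20 was at 8.34, 7.65, 11.5 and 7.08 CPM (-0.11 and -0.63). Bop1 thus differed alike in the genotypes, whereas Nip7 and Nhp2 were further apart in wildtype. This difference between genotypes was not tested.

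A few members were higher with TNF in wildtype Progenitor.2. Rrs1, a 60S factor, had 34 UMIs or 20.2 CPM without TNF and 360 UMIs or 28.4 CPM with it (0.47), with overlapping intervals. In the Tnfr2-/- libraries Rrs1 was at 28.1 and 29.99 CPM. Nop10 had 187 (167 to 209) and 230 (221 to 238) CPM (0.30). Npm1 was higher as well (728 and 892 CPM, 0.29). Through Npm1 the summed level was lower by only -0.13 log2 in a pair in which the median member was lower by -0.42. In Tnfr2-/- the members with the largest differences upward were Gnl3 (44.1 and 51.0 CPM, 0.21) and Nolc1 (58.7 and 63.3 CPM, 0.11).

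**Figure D4:**
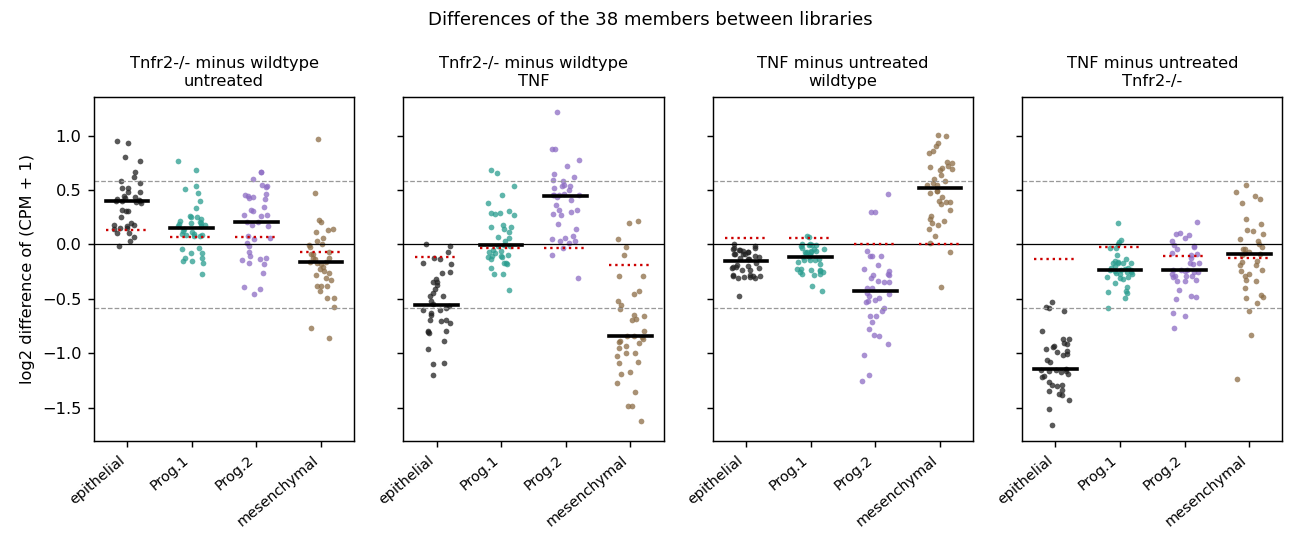
Log2 difference of (CPM + 1) of each member (points, y axis) between 2 libraries, in 4 panels for the 4 comparisons and for all epithelial, Progenitor.1, Progenitor.2 and all mesenchymal cells (x axis). Solid bars mark the median of the 38 members, dotted red bars that of all genes, and dashed lines 1.5-fold; for TNF in Tnfr2-/- the medians are -1.15 over the epithelium but -0.23 and -0.24 within the 2 progenitor classes.

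Roles differed somewhat within Progenitor.2. For the genotype pair with TNF, the summed levels of RNA polymerase I members were 37.9 and 60.6 CPM (log2 ratio 0.68) and those of the box C/D snoRNP 110 and 164 CPM (0.58). The nucleolar organizers had 1194 and 1527 CPM (0.36) and the late 40S factors 44.8 and 50.1 CPM (0.16). The box H/ACA snoRNP, led by Nop10, had 337 and 311 CPM (-0.11). For TNF in wildtype the ratios ran from -0.59 (box C/D snoRNP) to 0.12 (nucleolar organizers, led by Npm1). In Progenitor.1 no role was further apart than 0.41 in any comparison, the box H/ACA snoRNP with TNF in Tnfr2-/- (888 and 669 CPM).

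Other genes of the pathway had epithelial medians of the same sign as the members, but smaller. In a list of 108 other ribosome biogenesis genes they were 0.29, -0.39, -0.07 and -0.76 in the order of the comparisons. At least 1.5-fold higher in the first were 8 of 108 (10.6% of all genes were), 28 were lower in the second (19.2%) and 76 in the last (21.5%). In Progenitor.1 the medians were 0.10, -0.01, -0.05 and -0.15, and 0 of 108 reached 1.5-fold. In Progenitor.2 they were -0.01, 0.18, -0.40 and -0.18, and with TNF in wildtype 33 were at least 1.5-fold lower, beside 9.76% of all genes at 10 CPM or more, a level that 84 of the 108 reached. Exosome subunits (10), which trim rRNA precursors, summed to 179, 146, 202 and 151 CPM in Progenitor.2. The summed level of 13 nucleotide synthesis genes in Progenitor.2 was 466 CPM without and 350 CPM with TNF in wildtype. There 8 were lower (49.6% of all genes) and 5 higher, and 5 were at least 1.5-fold lower (9.76% of all genes). In Tnfr2-/- the sum was 537 and 373 CPM, and all 13 were lower, where 65.5% of all genes were. At least 1.5-fold lower were 3 of them (5.21% of all genes). Of the 13, 8 reached 10 CPM in Progenitor.2.

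Cytosolic ribosomal protein genes differed from the members in the direction of the TNF comparisons in Progenitor.2, but not in that of the genotype pairs. Their 79 transcripts took 14.9%, 18.01%, 18.5% and 21.8% of Progenitor.2 UMIs. With TNF 72 of 79 were higher in wildtype and 78 of 79 in Tnfr2-/- (50.3% and 34.5% of all genes), by medians of 0.30 and 0.24. Of the 38 members, 35 and 32 were lower. In Tnfr2-/- against wildtype, 73 of 79 ribosomal protein genes were higher without and 78 of 79 with TNF (56.2% and 47.3% of all genes). Their medians were 0.32 and 0.27, and 26 and 35 of the 38 members were higher too. In Progenitor.1 the ribosomal protein genes took 29.0% to 31.4% of UMIs, with TNF medians of -0.09 and 0.03. Leaving them out of the totals gave ratios of Progenitor.1 to Progenitor.2 of 3.98, 3.56, 3.12 and 2.83 for the summed members.

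**Figure D5:**
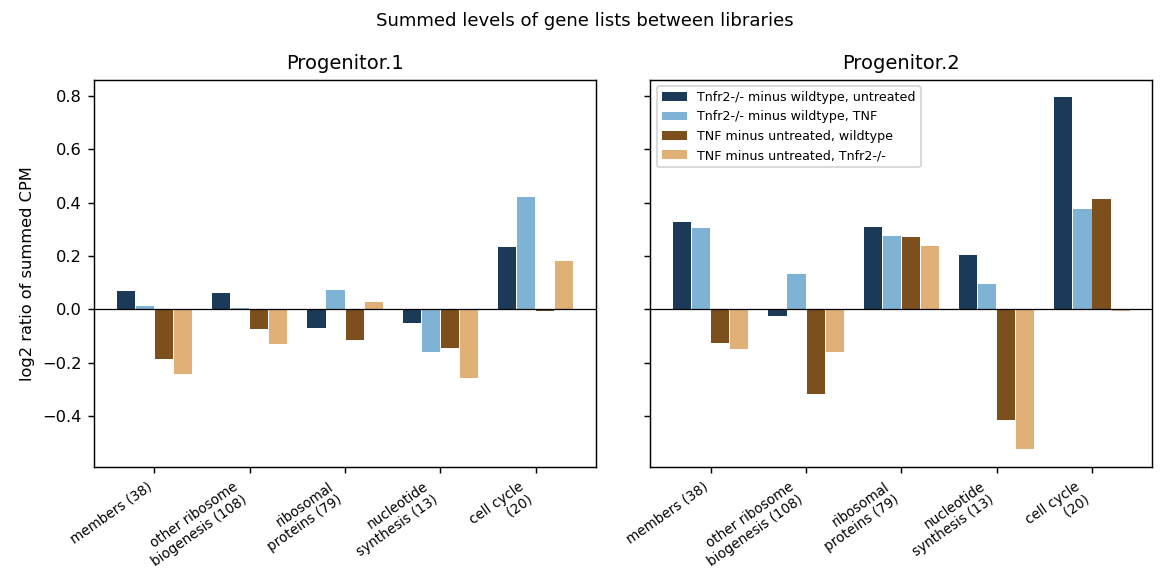
Log2 ratio of the summed CPM of each gene list (x axis, with the number of genes) for the 4 comparisons (colours) within Progenitor.1 and Progenitor.2. With TNF in Progenitor.2, ribosomal protein genes are higher (0.27 and 0.24) while the members are lower (-0.13 and -0.15).

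Myc was at 40.7, 36.0, 47.0 and 48.0 CPM in Progenitor.1 and 29.2, 20.4, 29.8 and 35.2 CPM in Progenitor.2. The ratio between the classes was thus smaller for Myc than for the summed members in every library. Mxd1, which encodes an antagonist of Myc, was at 19.1, 19.5, 24.9 and 27.1 CPM in Progenitor.1 and at 250, 438, 250 and 343 CPM in Progenitor.2. It stood in the list of Myc family genes, but was chosen for mention after its values were seen. No other gene of that list was as far apart in this direction. Max and Mnt were also higher in Progenitor.2 in every library, but by less. Max was at 33.5, 39.0, 35.8 and 39.8 CPM in Progenitor.1 and at 39.9, 58.7, 39.8 and 42.4 CPM in Progenitor.2. Mycl, like Myc, was higher in Progenitor.1 in every library. Mxd4 was higher in Progenitor.1 in every library, at 32.5, 23.5, 25.9 and 19.9 CPM against 27.99, 22.3, 25.6 and 13.4 CPM. Mnt was at 10.5, 11.3, 11.8 and 14.6 CPM in Progenitor.1 and at 11.3, 11.98, 16.04 and 17.96 CPM in Progenitor.2. A list of 10 genes known to respond to dissociation, such as Fos, Jun and Atf3, summed to 2239, 4465, 2513 and 2354 CPM in Progenitor.2 and to 1580, 2635, 2290 and 1433 CPM in Progenitor.1. Wildtype TNF was the highest library in both classes, and the part of this response in the members' levels was not tested.

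In mesenchymal cells the pattern differed from that of the epithelium. The members summed, in CPM, to 3349 (3330 to 3369), 3929 (3897 to 3961), 2719 (2650 to 2789) and 2724 (2677 to 2771), highest with TNF in wildtype. In that comparison 36 of 38 members were higher (50.3% of all genes), by a median of 0.52 (all genes 0.00). At least 1.5-fold higher were 15, where 12% of all genes were. Nop56 went from 49.5 to 99.9 CPM, Mybbp1a from 52.2 to 106 CPM and Utp20 from 21.7 to 42.4 CPM. With TNF, 35 of 38 members were lower in Tnfr2-/- than in wildtype (64.0% of all genes), by a median of -0.84 (all genes -0.19). At least 1.5-fold lower were 27 (22.5% of all genes). In Tnfr2-/- the TNF median was -0.09 (all genes -0.12), and 3 members were 1.5-fold lower (Dkc1, Nop10 and Rrp12; 18.8% of all genes). In the untreated genotype pair only Rrp12 was 1.5-fold higher (9.63% of all genes), and Rrs1 and Bysl were lower (13.5%).

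The mesenchymal classes were not the same in the 4 libraries. Of 1430 mesenchymal cells in wildtype untreated, 892 belonged to the Ifitm1 class, while 304 of 306 in wildtype TNF and 122 of 122 in Tnfr2-/- TNF belonged to the Ptges class. Within the Ptges class the members had 2327 (34 cells), 3925, 3071 (37 cells) and 2724 CPM. With TNF, 35 of 38 members were lower there in Tnfr2-/- (63.6% of all genes), and 27 were at least 1.5-fold lower where 22.3% of all genes were. Between the 2 wildtype libraries 21 were at least 1.5-fold higher with TNF in this class, where 28.4% of all genes were, at a median depth of 5755 against 48633 UMIs per cell. In the untreated genotype pair of this class 11 members were higher by that fold (23% of all genes) and 9 lower (24.6%), and with TNF in Tnfr2-/- 3 were higher (12.3%) and 9 lower (13.1%). The 20 cell cycle genes summed to 786, 920, 343 and 237 CPM in mesenchymal cells, and epithelial markers to 207, 202, 109 and 575 CPM, highest in Tnfr2-/- TNF. Their part in these differences was not tested.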

How the data were processed

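Single-cell RNA-seq (10x Genomics 3' libraries) was taken from 4 colonoid cultures, 1 library per group. Per the submitters' processing notes, reads were handled with Cell Ranger 5.0.0 and mm10. The authors loaded UMI counts into monocle3, removed cells under 100 UMIs and epithelial-mesenchymal doublets, and clustered cells on a UMAP of 100 principal components. The deposited matrix holds raw counts, which were used as deposited, with the deposited cell classes. No doublet caller was run here.

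For each class and library, UMI counts of its cells were added up, scaled to CPM of the same cells and compared as log2(CPM + 1) in Python 3.11.15 (numpy 2.4.6, scipy 1.17.1, pandas 2.3.3). A call was a 1.5-fold difference (2-fold between classes). The background was all genes with a mean of 10 CPM or more over the 4 libraries in the same cells. Between classes it was a mean of 10 CPM or more over the 2 classes in that library. Members and listed genes were counted whether or not they reached this level. Exact Poisson intervals cover counting error only. With 1 library per group no test was run. For single cells, each cell was thinned to 5000 UMIs and shallower cells were left out, 0 to 8 per class and library.

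Epithelial differences were split at the midpoint into class shares and levels within 7 classes. A class without cells in 1 library took the other library's level, so it added to the share term only. Alternatives used TMM factors (edgeR 4.0.16), median-of-ratios factors (DESeq2 1.42.0, R 4.3.3), other pseudocounts, minimums, totals and cell filters. On Poisson counts simulated with 2-fold changes up or down, 95.5% to 100% of 200 changed genes were recovered in Progenitor.2 (7388 genes). Calls were made at 1.5-fold, and 0 to 2.13% of unchanged genes were called. The simulation held no spread between cultures or cells and no true change near 1.5-fold.

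The members and lists were chosen with earlier results of these data known. Values are given in every library for 20 fixed members, for the 2 members with the largest difference in each direction of each comparison within Progenitor.1 and Progenitor.2, for members on chromosomes 2 and 19, and for Myc and Mki67. Positions are from GENCODE M21 (GRCm38). Of the members, 17 overlap a gene on the other strand or a small nucleolar RNA gene, and the assignment of such reads was not stated.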

Additional observations from a re-analysis of the deposited data

Results flagged for a closer look

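Several differences of the members pointed in opposite directions in 2 settings, and none of these contrasts could be tested with 1 library per group. Across the epithelium the median genotype difference, Tnfr2-/- minus wildtype, was 0.40 without TNF and -0.56 with TNF.

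Mesenchymal and epithelial cells differed in direction. The TNF median in mesenchymal cells was 0.52 in wildtype and -0.09 in Tnfr2-/- (all genes 0.00 and -0.12). The Tnfr2-/- value lay near that of all genes. Over the alternatives it ran from -0.11 to 0.06, so its sign is not settled. For TNF in wildtype it was -0.11 in Progenitor.1, -0.42 in Progenitor.2 and -0.16 over the epithelium, against 0.52 in mesenchymal cells. The untreated genotype median was 0.15 in Progenitor.1, 0.21 in Progenitor.2 and 0.40 over the epithelium, against -0.16 in mesenchymal cells. With TNF it was 0.44 in Progenitor.2 and -0.84 in mesenchymal cells.

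Single members of Progenitor.2 also turned. The TNF difference of Gnl3 was -0.24 in wildtype and 0.21 in Tnfr2-/-, and that of Nop10 was 0.30 and -0.47. The genotype difference of Nop10 was 0.46 without and -0.30 with TNF, that of Nip7 was -0.45 and 0.46, and that of Noc2l was -0.27 and 0.59. The untreated wildtype values rest on 62 cells.

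Cells that carry no deposited class entered no comparison. Their summed members were at 5184 CPM in wildtype untreated (31 cells) and 5690 CPM in Tnfr2-/- untreated (4 cells). They carried both epithelial markers (6319 and 4566 CPM) and mesenchymal markers (3641 and 2954 CPM). Whether they are epithelial-mesenchymal doublets was not tested.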

How the results depend on the processing

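No paired analysis was possible because each group has 1 library and the labels share no other replicate number, and for the same reason no replicate could be left out. Across all alternatives 244 values stayed the same, 74 moved and 2 reversed. For a count, same meant within the fold used for calls. For a median, it meant inside a band between the median lower and upper ends of the members' own counting intervals. This band is no interval of the median itself, so staying inside it is a weak check. A median was labelled reversed only where its band left out 0. The Progenitor.1 genotype median with TNF (-0.05 to 0.02) changed sign without this label. So did the mesenchymal TNF median in Tnfr2-/- (-0.11 to 0.06). The 244 include the setting without an expression minimum, which could not change the medians and counts. Members were counted whether or not they reached the minimum, so this part of the tally tests nothing. In the order untreated genotype pair, genotype pair with TNF, TNF in wildtype and TNF in Tnfr2-/-, the epithelial medians of 0.40, -0.56, -0.16 and -1.15 became 0.30, -0.41, -0.25 and -0.99 with TMM factors and 0.28, -0.41, -0.25 and -0.99 with median-of-ratios factors. TMM moved the median of all epithelial genes from 0.13 to 0.03, from -0.12 to 0.03, from 0.06 to -0.04 and from -0.14 to 0.02. With a pseudocount of 10 CPM the second and last medians were -0.42 and -0.86, and the mesenchymal TNF median in wildtype was 0.39 in place of 0.52. As a mean over cells the second was -0.67.

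Counts of members at 1.5-fold depended on the settings. Of 6 higher in the untreated epithelium, 3 remained as a count at a pseudocount of 10, 2 without chromosomes 2 and 19, and 0 at 2-fold. For 17 lower with TNF between genotypes, the counts were 11 (pseudocount 10), 9 (TMM and median-of-ratios factors), 7 (minimum of 50 CPM) and 3 (2-fold). For 35 lower with TNF in Tnfr2-/- the count was 14 at a minimum of 50 CPM, where fewer genes enter. In Progenitor.2 the 8 higher in Tnfr2-/- with TNF became 3 (pseudocount 10), 16 (mean over cells), 1 (minimum of 50 CPM), 5 (without chromosomes 2 and 19) and 1 (2-fold), and the 11 lower with TNF in wildtype became 4, 2 and 3 (pseudocount 10, minimum of 50 CPM and 2-fold). In mesenchymal cells the 27 lower in Tnfr2-/- with TNF became 8 (minimum of 50 CPM) and 10 (2-fold), and the 15 higher with TNF in wildtype became 5, 4 and 1 (pseudocount 10, minimum of 50 CPM and 2-fold).

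The share term of 73.4% for the untreated genotype pair was 67.6% without mitochondrial genes, 68.6% as a mean over cells, 57.6% without Npm1 and Ncl, 85.5% without chromosomes 2 and 19, 68.4% with shares moved first and 78.4% with levels moved first. That of 110% for the genotype pair with TNF was 117% without mitochondrial genes, and 128% and 92.8% with shares or levels moved first. That of 1.82% for TNF in wildtype was 11.8% as a mean over cells, -0.56% in cells of at least 10000 UMIs, -14.4% without Npm1 and Ncl, and 19.7% and -16.1% with shares or levels moved first, so its sign is not settled. That of 78.1% for TNF in Tnfr2-/- was 79.5% without mitochondrial genes, 75.6% without Npm1 and Ncl, 79.3% without chromosomes 2 and 19, and 87.4% and 68.8% with shares or levels moved first. Leaving ribosomal protein genes out of the totals, an alternative chosen after seeing the data, gave 81.4%, 117% and 81.7% for the first, second and last. With Progenitor.1 and Progenitor.2 weighted equally and no other class, the log2 ratios of the summed members were 0.13, 0.089 (reversed from -0.55), -0.17 and -0.22. With these classes at their own shares and no other class, also chosen after seeing the data, they were -0.079 (reversed from 0.30), -0.59, -0.60 and -1.10.

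The ratios of Progenitor.1 to Progenitor.2 of 3.21, 3.08, 2.69 and 2.52 became 4.38, 3.80, 2.96 and 2.79 as means over cells and 3.98, 3.56, 3.12 and 2.83 without ribosomal protein genes. In wildtype untreated the ratio was 3.07 in cells of at least 10000 UMIs and 2.52 without Npm1 and Ncl, which gave 2.60 and 2.57 in the 2 Tnfr2-/- libraries. Depth limits the untreated wildtype Progenitor.2 values, which rest on 62 cells. The cause of these movements was not tested.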
